A study of Mus musculus with 20 samples.

Results

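The small leucine-rich proteoglycans were examined in 5 groups of mouse cells through the 8 family members Dcn, Bgn, Lum, Prelp, Fmod, Ogn, Omd and Aspn. The members were taken as the genes whose symbol the array's platform annotation gives to a probe, which found 12 probes for the 8 members among 25697 probes, 5 members having 1 probe each, Dcn and Fmod 2 each and Ogn 3. These 8 were among 16593 genes tested. On the fibroblast arrays 6 of the 8 members were above background throughout, and in the pluripotent groups most were not. Dcn and Bgn were the main exceptions, and both were highest among the pluripotent groups in GFPoct4.

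Small leucine-rich proteoglycans are secreted proteins of the extracellular matrix that carry leucine-rich repeats and, in many members, chondroitin sulfate, dermatan sulfate or keratan sulfate chains. They bind collagen and shape its fibrils, and several bind growth factors such as TGF-beta or signal through cell-surface receptors. Dermal fibroblasts are a main source of them in skin, whereas undifferentiated stem cells in culture make little fibrillar matrix.

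Total RNA from mouse cells was labelled and hybridised to Illumina bead arrays, 4 arrays for each of 5 titled groups, 20 in all. E14-mES, C57-mES and GFPoct4 are given as embryonic stem cells by their source and cell type fields. The sFB-protein-iPS arrays are given as induced pluripotent stem cells, and their title also carries the words sFB and protein. The labels do not spell out sFB, but the series title names skin fibroblasts, and FVB-sFB (FVB being a mouse strain) is read here as those cells, although its source and cell type fields say embryonic stem cell. C57 in C57-mES is a strain name too, so strain and cell type cannot be told apart in its comparison with FVB-sFB. The titles E14-mES, GFPoct4 and sFB-protein-iPS name no strain, and the part of strain in their comparisons was not tested. Apart from the word protein in the sFB-protein-iPS title, the labels give no treatment, time, passage, sex, age, medium or feeder layer for any group. They do not say what the GFPoct4 line carries beyond its title. They also do not say whether the 4 arrays of a group came from separate cultures, so the p-values measure only the spread between these arrays. Of 11 measured embryonic stem cell markers (Pou5f1, Nanog, Sox2 and others), all 11 were above background on every array of the 4 pluripotent groups and 1, Zfp42, on all FVB-sFB arrays. Of 14 fibroblast markers, 12 were above background on all FVB-sFB arrays, so the markers went against the embryonic stem cell fields of that group.

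Levels below are log2 normalized intensities of 1 probe per gene, and differences are in log2 units unless a fold is given. A probe counted as above background on an array when it exceeded the 95th percentile of 1305 olfactory and vomeronasal receptor probes there, a level of 6.69 to 6.85. A gene was called different between groups at an adjusted p under 0.05 (limma over all 16593 genes, Benjamini-Hochberg) with a log2 difference of at least 1. Where one group was not above background on all 4 arrays, the fold is a lower bound, written "at least", taken against the higher of each array's background level and the probe's own level, and no fold is given where neither group was. Median raw intensity ranged from 94.4 to 179 over the 20 arrays, and 48.2 to 53.5% of probes were above background. E14-mES array 4 had the highest median, against 115 to 123 on the other 3 E14-mES arrays. The FVB-sFB arrays fell into 2 pairs over all genes: deviations from the group mean correlated at 0.521 between arrays 1 and 2 and at 0.386 between arrays 3 and 4, and at most at -0.706 across the pairs (centring on a mean of 4 arrays by itself pulls such correlations below 0). The fit treats these 4 arrays as separate replicates, so its p-values against FVB-sFB may be too small. Without either pair, 6 of 8 members were still called lower in each of the 4 comparisons with FVB-sFB.

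Promoter sequences of 6 of the 8 members were found in the RefSeq promoter table, build GRCm38.p6 (Dcn and Lum were not), and 3 are shown, 250 bases up to the table's start, because these 3 members had different patterns over the groups. On all 4 arrays of a group, Bgn was above background in every group but E14-mES (3 of 4 arrays there), Prelp in FVB-sFB and GFPoct4, and Ogn in FVB-sFB alone. Bgn is on chromosome X and the window is chrX:73483351-73483600, plus strand. Prelp is on chromosome 1, chr1:133921402-133921651, minus strand, which lies inside the annotated span of the gene. Ogn is on chromosome 13, chr13:49607765-49608014, plus strand. Each is written 5′ to 3′, and capitals mark matches to the motifs searched.
Bgn: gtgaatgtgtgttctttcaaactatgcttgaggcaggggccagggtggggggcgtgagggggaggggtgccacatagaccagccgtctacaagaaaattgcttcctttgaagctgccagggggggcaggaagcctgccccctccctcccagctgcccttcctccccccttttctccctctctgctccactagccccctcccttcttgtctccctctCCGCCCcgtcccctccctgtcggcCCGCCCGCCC
Prelp: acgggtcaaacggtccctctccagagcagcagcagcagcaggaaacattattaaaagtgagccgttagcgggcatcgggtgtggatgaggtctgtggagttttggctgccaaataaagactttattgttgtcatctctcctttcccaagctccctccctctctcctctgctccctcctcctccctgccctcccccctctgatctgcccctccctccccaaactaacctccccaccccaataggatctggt
Ogn: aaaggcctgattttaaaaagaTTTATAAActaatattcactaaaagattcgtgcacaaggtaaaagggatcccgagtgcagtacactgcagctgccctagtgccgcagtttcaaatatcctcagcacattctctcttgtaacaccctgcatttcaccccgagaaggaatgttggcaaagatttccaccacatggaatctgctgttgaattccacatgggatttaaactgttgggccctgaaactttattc

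Each motif was searched on both strands and set against 32851 mouse promoter windows of the same length. The TATA box letters TATAAA were in 12.4% of all windows. The GC box letters GGGCGG were in 32.7%. An E-box, spelled CACCTG, was in 17.2%. The AP-1 type motif, spelled TGANTCA, was in 6.75%. Bgn had 3 GC box matches, beginning 34, 10 and 6 bases before the start, the last pair overlapping. Ogn had 2 overlapping TATAAA matches at 229 and 227 bases before the start. The Prelp window held none of the 4 motifs in these letters. GC content was 64.4% in the Bgn window, 55.6% in Prelp and 42% in Ogn, and the median window had 52.4%. A match is a description of letters in the window, and binding was not measured.

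The members lie in family clusters in the RefSeq table (GRCm38.p6; the deposited files name no build). Prelp and Fmod are neighbours of Optc on chromosome 1, chr1:133897193-134048280 in all. Dcn and Lum lie beside Kera and Epyc on chromosome 10, chr10:97479500-97681908. Aspn, Omd and Ogn follow Ecm2 on chromosome 13, chr13:49504810-49624501. The relatives Optc, Kera, Epyc and Ecm2 were above background on none of the 20 arrays, although their neighbours Prelp, Dcn and Ogn were high in FVB-sFB.

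**Figure D1:**
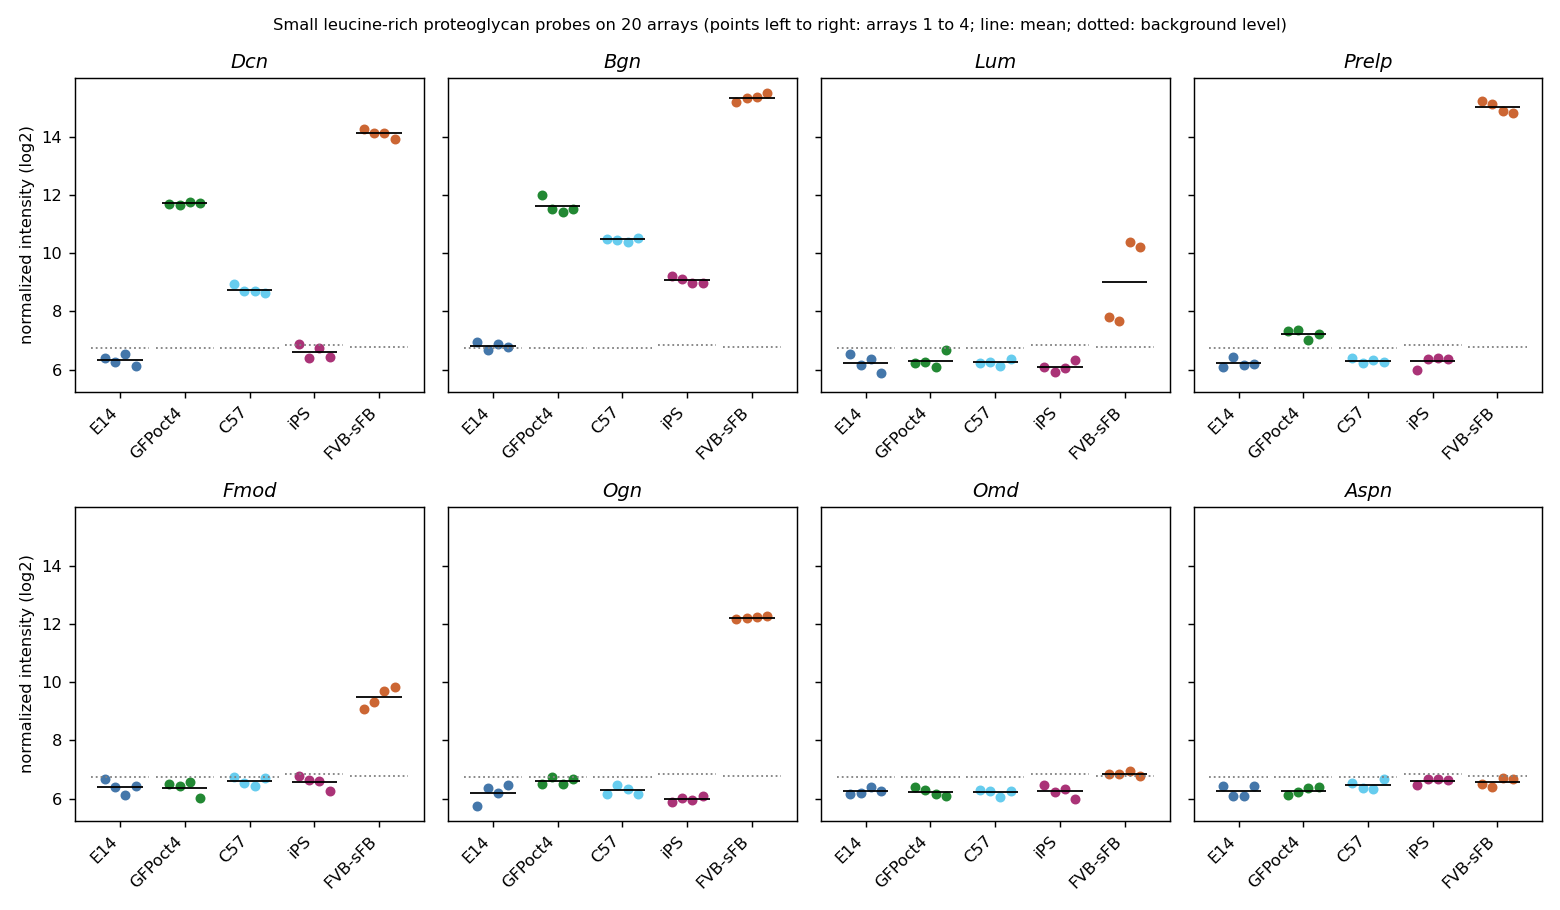
Normalized intensity (log2) of the 8 members on the 20 arrays, one panel per member, with arrays 1 to 4 of each group as points, the group mean as a line and the background level dotted (E14, C57 and iPS stand for E14-mES, C57-mES and sFB-protein-iPS). Dcn goes from 14.1 in FVB-sFB to 11.7 in GFPoct4 and 8.75 in C57-mES, and the Lum points of FVB-sFB form a low and a high pair.

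Decorin, Dcn, is a chondroitin or dermatan sulfate proteoglycan that binds collagen fibrils and TGF-beta. Dcn was highest in FVB-sFB, with levels of 14.27, 14.14, 14.12 and 13.94 on arrays 1 to 4, and next in GFPoct4, with 11.69, 11.65, 11.77 and 11.73. C57-mES followed with 8.94, 8.71, 8.69 and 8.64. In E14-mES Dcn measured 6.40, 6.27, 6.55 and 6.13, and in sFB-protein-iPS 6.88, 6.39, 6.75 and 6.44, of which 1 array was above background. The FVB-sFB, GFPoct4 and C57-mES arrays did not overlap with each other or with the rest, whereas E14-mES and sFB-protein-iPS overlapped. Dcn was 5.29-fold lower in GFPoct4 than in FVB-sFB (log2 difference -2.40, SE 0.11, adjusted p = 4.65e-16) and 41.4-fold lower in C57-mES. In E14-mES it was at least 166-fold lower and in sFB-protein-iPS at least 154-fold lower than in FVB-sFB. These are bulk cultures, so fewer cells of a type and less RNA per cell cannot be told apart.

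The second Dcn probe (ILMN_2596346, the first being ILMN_2747959) followed the first in GFPoct4, with 9.80, 9.73, 9.84 and 9.70 there and 12.21, 11.89, 11.91 and 11.84 in FVB-sFB. It gave 4.58-fold between these groups. In C57-mES, however, the second probe lay at 6.28 to 6.65 and above background on no array. On this probe Dcn was lower in E14-mES than in C57-mES by a log2 difference of -0.515 without overlap of arrays (limma over all probes, adjusted p = 0.000342), the direction of the first probe, but neither group was above background and it was not called. The level of Dcn above background in C57-mES was thus seen on the first probe alone. The second was the dimmer probe where both were above background, with means of 11.962 against 14.115 in FVB-sFB and 9.765 against 11.711 in GFPoct4. Whether this dimness accounts for its lack of signal in C57-mES was not tested.

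Biglycan, Bgn, has the same type of chains as decorin and is bound by innate immune receptors when released from the matrix. Bgn measured 15.18, 15.32, 15.36 and 15.51 in FVB-sFB, 11.98, 11.52, 11.40 and 11.53 in GFPoct4, and 10.49, 10.47, 10.39 and 10.54 in C57-mES. Levels were 9.22, 9.10, 8.98 and 8.98 in sFB-protein-iPS and 6.96, 6.68, 6.87 and 6.76 in E14-mES, where 3 of 4 arrays were above background. No 2 groups overlapped. Relative to FVB-sFB, Bgn was 13.3-fold lower in GFPoct4 (log2 difference -3.74, SE 0.11, adjusted p = 3.44e-20), 29.2-fold lower in C57-mES, 77.1-fold lower in sFB-protein-iPS and at least 363-fold lower in E14-mES. Bgn was near the top of the array in FVB-sFB, where raw intensities of 38680 to 40764 left 16 to 42 brighter probes and the array maximum was 48441 to 51402.

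**Figure D2:**
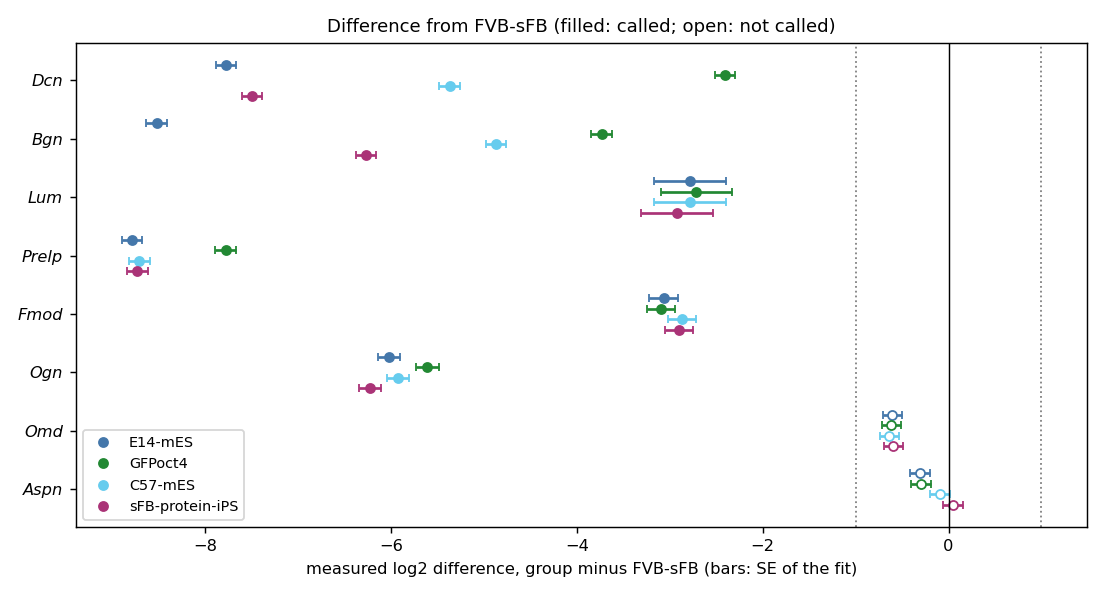
Measured log2 difference of each member in the 4 other groups minus FVB-sFB (bars, SE of the fit; filled, called; open, not called). Dcn differs by -2.40 in GFPoct4 and by -5.37 in C57-mES, points of groups not above background (such as Dcn in E14-mES) are differences from background signal, and Omd and Aspn stay within 1 of 0 and are not called.

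The order of Dcn and Bgn over the pluripotent groups was GFPoct4, C57-mES, sFB-protein-iPS and E14-mES. Between GFPoct4 and C57-mES, Dcn was 7.81-fold higher in GFPoct4 (log2 difference 2.97, SE 0.11, adjusted p = 1.02e-16) and Bgn 2.20-fold higher (adjusted p = 3.74e-09). These 2 of 8 members were the ones called higher in GFPoct4, against 4.45% of all genes. Dcn was at least 3.72-fold and Bgn 2.64-fold lower in sFB-protein-iPS than in C57-mES (2 of 8 members called lower; 2.40% of all genes), and Dcn was at least 4.02-fold and Bgn at least 12.4-fold lower in E14-mES than in C57-mES (2 of 8; 3.21%). In sFB-protein-iPS relative to E14-mES, 1 of 8 members was higher, Bgn (at least 4.71-fold; 3.18% of all genes were called higher). For Dcn the last neighbours in the order were not told apart, with overlapping arrays (limma log2 difference 0.28, SE 0.11, adjusted p = 0.05).

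In direct comparison with the other 2 pluripotent groups, GFPoct4 had 3 of 8 members called higher than E14-mES (1.20% of all genes) and 2 of 8 called higher than sFB-protein-iPS (3.60% of all genes). Dcn was at least 31.4-fold and Bgn at least 27.3-fold higher in GFPoct4 than in E14-mES. Relative to sFB-protein-iPS, GFPoct4 had Dcn at least 29.1-fold and Bgn 5.80-fold higher. The third call was Prelp.

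Prelp, a protein that anchors basement membranes to connective tissue, was at 15.22, 15.13, 14.89 and 14.81 in FVB-sFB and at 7.32, 7.36, 7.03 and 7.24 in GFPoct4. All 4 GFPoct4 arrays were above background. Levels were 6.09 to 6.44 in E14-mES, 6.23 to 6.38 in C57-mES and 5.99 to 6.39 in sFB-protein-iPS, and none of these arrays was above background. The GFPoct4 arrays did not overlap with any other group. Prelp was 220-fold lower in GFPoct4 than in FVB-sFB and at least 289- to 310-fold lower in the other 3 groups. Like Bgn, Prelp was near the top of the array in FVB-sFB, at raw intensities of 28380 to 39008 with 39 to 70 brighter probes. Its GFPoct4 mean was only 0.49 above the background level. Against E14-mES, Prelp in GFPoct4 was higher by 1.01 (SE 0.11, limma adjusted p = 1.55e-07, at least 1.41-fold), just past the 2-fold limit. The call was lost without E14-mES array 1, 3 or 4 or GFPoct4 array 1 or 2, where the difference was 0.967 to 0.999. The differences from C57-mES (0.93) and sFB-protein-iPS (0.95) missed that limit and passed it without GFPoct4 array 3, at 1.00 and 1.02.

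**Figure D3:**
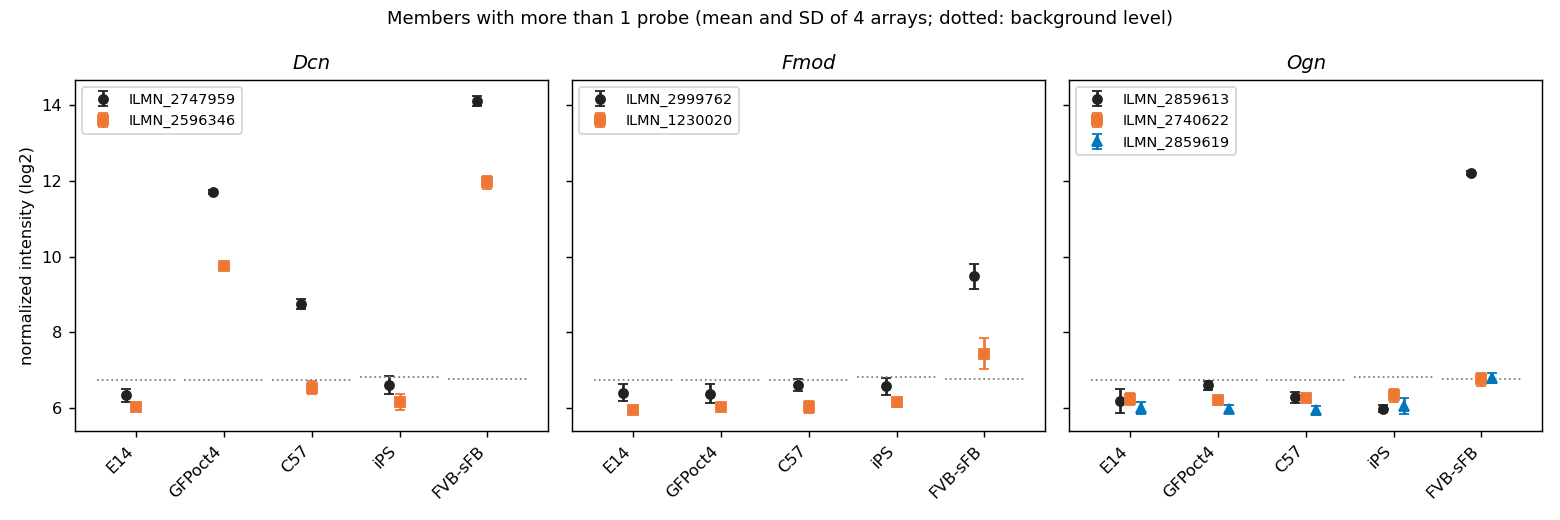
Normalized intensity (log2; mean and SD of 4 arrays) of the members with more than 1 probe, one panel per gene, by group, with the background level dotted. In C57-mES the first Dcn probe is at 8.75 and the second at 6.54, and only the first Ogn probe is far above background in FVB-sFB.

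Lum, Fmod and Ogn were above background on all 4 FVB-sFB arrays, and outside FVB-sFB only 1 array of 1 of them, Fmod in C57-mES, was above background. Osteoglycin, Ogn, a member with keratan sulfate chains in some tissues, was at 12.15, 12.19, 12.23 and 12.29 in FVB-sFB and between 5.73 and 6.73 elsewhere. The groups did not overlap, and Ogn was at least 41.5- to 44.5-fold lower in the 4 other groups. The other 2 Ogn probes stayed at 6.60 to 6.99 in FVB-sFB, above background on 1 and 2 of 4 arrays, and were not called. Fibromodulin, Fmod, which binds collagen and carries keratan sulfate, was at 9.09, 9.32, 9.68 and 9.82 in FVB-sFB and at 6.01 to 6.79 elsewhere, and was at least 6.23- to 6.68-fold lower in the other groups. Its second probe was at 7.04, 7.12, 7.75 and 7.86 in FVB-sFB and was called too.

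Lumican, Lum, a keratan sulfate proteoglycan that regulates collagen fibrils in skin and cornea, was split within FVB-sFB. Its levels were 7.81 and 7.69 on arrays 1 and 2 and 10.38 and 10.21 on arrays 3 and 4. The 2 pairs differed by 2.55, or 5.86-fold. Only 10 of 8097 genes above background in FVB-sFB differed at least as much between these pairs, Lum among them, and 177, or 2.19%, differed by 1 or more. On the 1 probe used per gene, no other member's pair difference exceeded 0.55, the value of Fmod. The second Fmod probe was split more widely, at 7.04 and 7.12 on arrays 1 and 2 and 7.75 and 7.86 on arrays 3 and 4. In the other groups Lum lay at 5.90 to 6.66, and all 4 FVB-sFB arrays were above those levels. By the mean of the 4 FVB-sFB arrays, Lum was at least 4.55- to 4.87-fold lower in the other groups, with an SE of 0.39 and limma adjusted p of 3.23e-07 to 1.06e-06. That bound does not hold for arrays 1 and 2 alone, at 7.81 and 7.69 against a background level of 6.69 to 6.85. Without FVB-sFB arrays 1 and 2 its log2 differences were -3.99 to -4.20, and without arrays 3 and 4 they were -1.44 to -1.65. The labels do not say what the array pairs share.

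Osteomodulin, Omd, known from bone matrix, was above background on 3 of 4 FVB-sFB arrays at 6.79 to 6.93 over the 4 arrays, and was at most 6.47 elsewhere. Its limma differences of -0.60 to -0.64 had adjusted p of 4.33e-06 to 1.2e-05 but missed the 2-fold limit. Asporin, Aspn, a relative of decorin and biglycan with a stretch of aspartate residues, was above background on no array, at 6.08 to 6.71.

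Counted together, 6 of 8 members were lower than in FVB-sFB in each of the 4 other groups: Dcn, Bgn, Lum, Prelp, Fmod and Ogn. Of all genes, 11.5% were called lower in E14-mES, 11.0% in GFPoct4, 11.6% in C57-mES and 11.5% in sFB-protein-iPS. The median log2 difference of the 8 members was -4.55 in E14-mES, -2.91 in GFPoct4, -3.87 in C57-mES and -4.58 in sFB-protein-iPS. Over all genes none of the 4 medians was farther than 0.03 from 0. Quantile normalization gives all arrays the same distribution and so by itself holds such medians near 0. All 4 comparisons use the same FVB-sFB arrays, so they are not independent of each other.

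Fibroblast markers also differed between the pluripotent groups. Of 14 measured, 8 were above background on all GFPoct4 arrays, 6 in C57-mES, 5 in E14-mES and 4 in sFB-protein-iPS, against 12 in FVB-sFB. Their summed linear level was 4260 to 4960 per array in GFPoct4, 3100 to 3280 in C57-mES, 1990 to 2280 in E14-mES and, overlapping with it, 2050 to 2140 in sFB-protein-iPS, and 90300 to 99600 in FVB-sFB. The sum includes the background signal of dim markers, and not every marker followed its order. Twist1 was at 7.66 in GFPoct4, 8.25 in C57-mES and 8.41 in sFB-protein-iPS, and Loxl1 was at 9.25 in GFPoct4 and 9.15 in C57-mES. In GFPoct4 the collagen genes Col1a1 and Col3a1 and the markers Pdgfrb, Postn and Fap were above background on none of the arrays, and Postn was on none in FVB-sFB either. The 8 markers above background on all GFPoct4 arrays were lower there than in FVB-sFB, Twist1 by 6.91-fold, Pdgfra 8.64-fold, Thy1 12.4-fold, Prrx1 14.7-fold, Twist2 14.8-fold, Fbln2 24.4-fold, Loxl1 33.0-fold and Tnc 33.8-fold. The 5.29-fold of Dcn was below that range and the 13.3-fold of Bgn was within it. For Col1a1 (at least 59.4-fold), Col3a1 (at least 8.41-fold), Pdgfrb (at least 6.88-fold) and Col1a2 (at least 5.05-fold) the differences were bounds. Primitive endoderm markers (11 measured) summed to 65800 to 72000 in FVB-sFB, 27000 to 28500 in sFB-protein-iPS, 13500 to 15400 in GFPoct4, 10100 to 10700 in E14-mES and 7580 to 8480 in C57-mES. The brightest in FVB-sFB were Sparc (15.35), Col4a1 (13.60) and Col4a2 (13.25), while Sox17, Sox7 and Lamb1 were above background on no array there. By count, 10 of the 11 were above background on all sFB-protein-iPS arrays, 9 in GFPoct4, 7 in E14-mES and in C57-mES, and 6 in FVB-sFB. Of 4 macrophage markers, Lyz2 and Cd14 were above background on all FVB-sFB arrays, Cd14 on all GFPoct4 arrays and none on all arrays of the other 3 groups, while Adgre1 and Ptprc were above background on no array. Their sum was 2800 to 3090 in FVB-sFB, 331 to 345 in GFPoct4 and 279 to 338 in the other 3 groups. The part of these markers in the Dcn and Bgn levels was not tested.

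**Figure D4:**
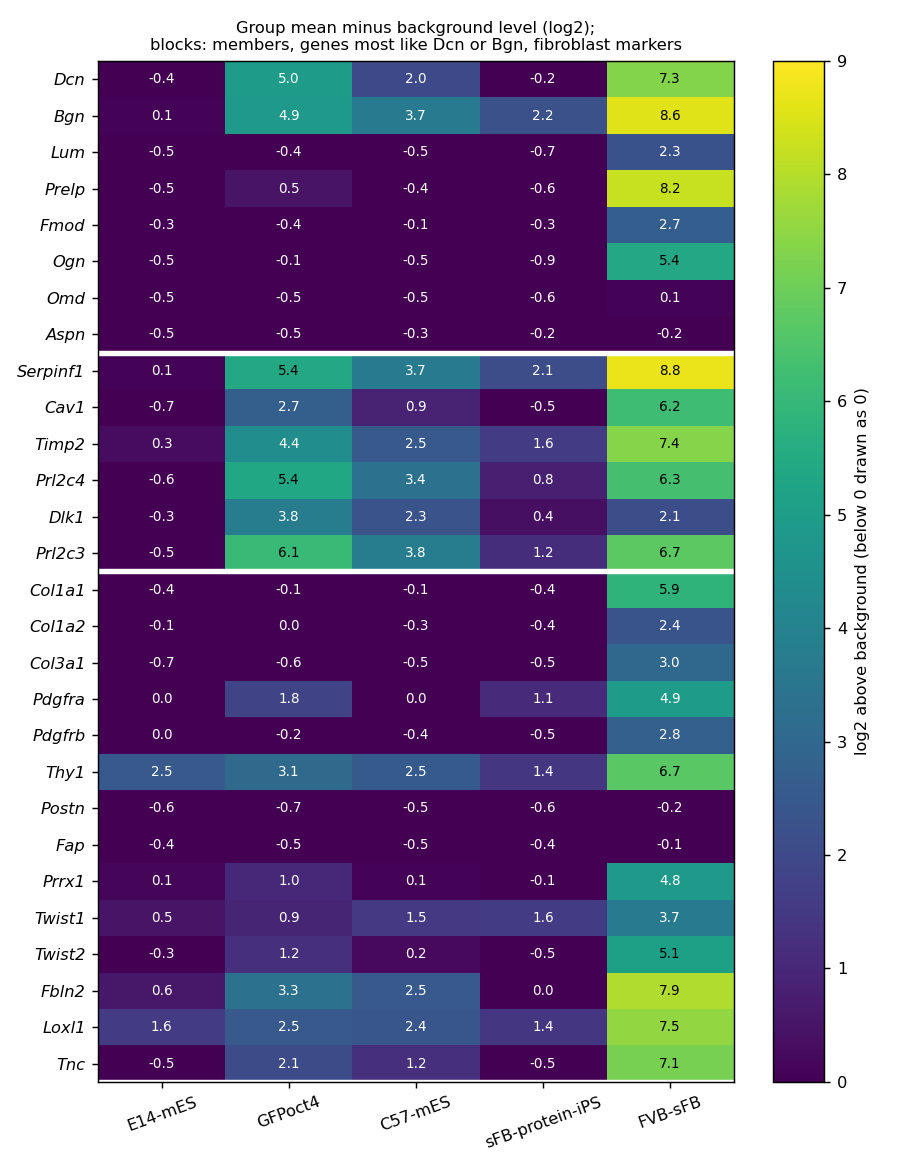
Group mean minus background level (log2, values below 0 drawn as 0) for the members, the genes most like Dcn or Bgn over the groups, and the fibroblast markers, by group. In GFPoct4, Dcn and Bgn are 5.0 and 4.9 above the background level, and Col1a1 and Col3a1 are below it.

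The genes whose group means were most like those of Dcn and Bgn were found by the root mean square difference of centred group means over the 5 groups, among 9817 genes. Those were non-members above background on all arrays of some group, without predicted or clone names. The likeness is a description of 5 points, and the groups share FVB-sFB as the highest. For Bgn the closest were Serpinf1, which encodes pigment epithelium-derived factor (0.24), Timp2, a metalloproteinase inhibitor (0.53), and Cav1, a caveolar coat protein (0.76). For Dcn the same 3 genes were closest, at 0.73 to 0.79. Serpinf1 stood at 15.52 in FVB-sFB, 12.17 in GFPoct4, 10.41 in C57-mES, 8.97 in sFB-protein-iPS and 6.81 in E14-mES. Over the 4 groups other than FVB-sFB, Prl2c4, Dlk1 and Prl2c3 were closest to Dcn (0.61 to 0.69). Dlk1, an imprinted gene for a Delta-like protein, was at 10.58 in GFPoct4, above the 8.92 of FVB-sFB. Prl2c3 and Prl2c4 are near-identical copies, so their probes may read each other's transcripts. The closest to Prelp were Lox, Serpina3n and Itga11, to Ogn Ly6c1, Lgals3bp and Col1a1, to Lum Megf10, Npy1r and Angpt4, and to Fmod Pparg, Cyp4a12b and Gdf10. Ogn, Lum and Fmod were above background on all arrays in FVB-sFB alone, so their likeness rests mainly on the FVB-sFB mean. Dcn and Prelp also include groups at background. In sFB-protein-iPS, Dcn was at 6.62, against 8.97 for Serpinf1, 8.45 for Timp2 and 6.35 for Cav1. Prelp was at 7.235 in GFPoct4, against 8.40 for Lox, 6.14 for Serpina3n and 6.42 for Itga11. For Lum that mean (9.024, SD 1.475) lay between a low and a high array pair, at a level no array had. Cyp4a12b also varied widely there (SD 1.336).

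Other genes of the same matrix system were read in lists chosen with earlier results known. Of 9 measured relatives of the family, 1, Podn, was lower in each group than in FVB-sFB (at least 1.47-fold in sFB-protein-iPS), a share near the 11.0 to 11.6% of all genes called lower in these comparisons, and the median of the list in sFB-protein-iPS was -0.05. Of 13 collagens and partners, 8 were lower in each group, against that same 11.0 to 11.6% of all genes (median -2.68 in sFB-protein-iPS, against 0.03 over all genes). In sFB-protein-iPS the 4 largest were Lox, the collagen cross-linking oxidase (at least 425-fold), Col6a1 (at least 64.4-fold), Col1a1 (at least 55.8-fold) and Col5a1 (41.8-fold). Of 11 proteases that cut the core proteins, 8 were lower in each group (median -3.54 in sFB-protein-iPS). Mmp3 was at least 44.1-fold, Mmp13 at least 25.6-fold, Mmp14 22.8-fold and Adamts5 at least 15.2-fold lower there.

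The enzymes that build the chains were less uniform. Of 20 chondroitin and dermatan sulfate enzymes, 8 were lower and 0 higher in sFB-protein-iPS than in FVB-sFB, with a median of -0.55, where 11.5% of all genes were lower and 11.7% higher (limma; 1 of the 20, Chst3, was higher at an unadjusted p under 0.05). The largest were Csgalnact1, which starts the chain (at least 9.89-fold), the sulfotransferase Chst12 (at least 5.69-fold), the xylose kinase Fam20b (5.59-fold) and Chst11 (at least 4.31-fold). Of 8 keratan sulfate enzymes, 2 were lower there, Chst1 (at least 20.4-fold) and Chst2 (at least 3.60-fold), and 1 was higher, B3gnt7 (at least 5.46-fold), with a median of -0.28. Among 14 growth factors and receptors that members bind, 6 were lower (list median -0.81), the largest being Egfr (33.2-fold), Tgfbr2 (19.2-fold), Tgfb3 (at least 9.61-fold) and Tlr4 (at least 3.81-fold), and 2 were higher, Bmp4 (5.02-fold, with overlapping arrays) and Tlr2 (2.08-fold). Of 9 hyaluronan and hyalectan genes, 3 were lower, Cd44 (36.9-fold), Has2 (at least 15.2-fold) and Vcan (at least 1.86-fold), with a median of -0.21.

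Between GFPoct4 and C57-mES, where Dcn and Bgn were higher in GFPoct4, calls in both directions were found in the lists of chain enzymes, calls of higher genes alone in the collagen, protease, growth factor and hyaluronan lists, and none among the relatives, where 4.45% of all genes were called higher and 3.47% lower in GFPoct4. List medians were 0.18 for collagens, 0.54 for proteases, 0.12 for growth factors and receptors, -0.03 for hyaluronan genes, 0.17 and 0.13 for the enzymes of chondroitin or dermatan sulfate and of keratan sulfate, and -0.04 for relatives of the family. Of collagens and partners, 1 of 13 was higher, Lox (2.67-fold), and Col1a1 and Col3a1 were not above background on all arrays of either group. Of the proteases 3 of 11 were higher, Mmp3 (at least 4.05-fold), Mmp14 (3.03-fold) and Mmp13 (at least 1.99-fold). Tlr2, a receptor for released biglycan, was 4.31-fold higher and Tgfbr2 2.23-fold higher, 2 of 14 in their list. Cd44 was 2.17-fold higher, 1 of 9. Of the chondroitin and dermatan sulfate enzymes, Chst3 was 2.11-fold higher and B3galt6 4.72-fold lower, and of the keratan sulfate enzymes Chst5 was at least 1.81-fold higher while Chst1 was 2.69-fold and B3gnt7 2.55-fold lower. The relatives of the family gave 0 of 9 calls in either direction by limma, also 0 at an unadjusted p under 0.05, and none was above background in GFPoct4 or C57-mES.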

How the data were processed

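Gene expression was measured on 20 Illumina bead arrays. The deposited non-normalized table holds probe intensities, exported with BeadStudio per the labels' description, and 500 ng of total RNA was used per the labels' protocols. The authors' deposited value table is log2 of the same intensities, equal to within 5e-09, with no further normalization. The deposited files name no genome build, and the promoter and gene positions given here are in GRCm38.p6. Intensities were background corrected (normexp, offset 50), quantile normalized and put on the log2 scale, and the probe with the highest mean was kept per gene, with symbols from the platform annotation (23978 of 25697 probes had 1 symbol). One fit over the 5 groups used limma 3.58.1 in R 4.3.3 (lmFit, eBayes), with Benjamini-Hochberg adjustment over 16593 genes in each of 10 comparisons. The fit was tested on simulated data. Members and lists were chosen with earlier results of these data known. From each list the text names up to 4 called genes with the largest change of GFPoct4 against C57-mES and of sFB-protein-iPS against FVB-sFB. Arrays of different groups with the same replicate number did not deviate together (5 of 40 pairs had a correlation over 0.1, range -0.33 to 0.246), so the numbers were not used as pairs. The alternatives tried were the offset, the background correction, the normalization, a filter on dim genes, all probes, the groups fitted, a replicate block and leaving out arrays. The number of arrays limits the precision.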

Additional observations from a re-analysis of the deposited data

Results flagged for a closer look

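In 3 of 40 sets of 4 arrays, 1 array stood apart from the other 3 by Dixon's test, where chance gives about 1 in 20. Prelp on sFB-protein-iPS array 1 was at 5.991, against 6.367 to 6.392 on the other arrays. Omd on C57-mES array 3 was at 6.054, against 6.258 to 6.296. Aspn on sFB-protein-iPS array 1 was at 6.485, against 6.649 to 6.668. None of these values was above background. The cause was not tested.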

How the results depend on the processing

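Of 1140 values (38 log2 differences of members under 30 alternatives), 1128 kept their direction and their side of the call, 7 lost a call, 5 gained one and 0 reversed. The 38 are the differences for which a fold is given, and those without a fold were left out of this count. Ogn between sFB-protein-iPS and GFPoct4 is among those left out. All 12 changes within the count were Prelp in comparisons with GFPoct4. Its call against E14-mES was lost without background correction (0.91) and in the deposited value table (0.74), and calls were gained with an offset of 16 against C57-mES (1.37) and sFB-protein-iPS (-1.43), and against sFB-protein-iPS in the value table (-1.02). With the offset of 16, 4 members (Dcn, Bgn, Prelp and Ogn) were called between sFB-protein-iPS and GFPoct4 instead of 2, and differences from groups at background grew by up to 2.15-fold (Ogn, sFB-protein-iPS against FVB-sFB, -6.23 to -7.33). Leaving out single arrays or FVB-sFB pairs gave 2 to 3 member calls for GFPoct4 against C57-mES and against E14-mES and for sFB-protein-iPS against GFPoct4. In the value table, genes called rose from 1160 to 2893 for sFB-protein-iPS against E14-mES and from 742 to 1165 against C57-mES, and Bgn in sFB-protein-iPS against E14-mES was 1.40 in place of 2.25. That table moved the median of all genes to -0.41 for sFB-protein-iPS against FVB-sFB and E14-mES, -0.18 against C57-mES and -0.25 against GFPoct4, to -0.18 and -0.26 for GFPoct4 and C57-mES against FVB-sFB, to 0.24 for E14-mES against C57-mES and to -0.17 for GFPoct4 against E14-mES; median centring moved it to 0.14 for sFB-protein-iPS against FVB-sFB. The share of calls that were higher went from 50.4% to 33.9% with median centring and 16.4% in the value table for sFB-protein-iPS against FVB-sFB, from 51.9% to 31.1% and from 51.3% to 31.8% in the value table for GFPoct4 and C57-mES against FVB-sFB, from 56% to 73.3% and 80.9% for E14-mES against C57-mES, from 61.2% to 43.7% and 25.3% for GFPoct4 against E14-mES, and for sFB-protein-iPS from 45.4% to 11% and 3.11% against E14-mES, from 42.8% to 17.3% and 8.67% against GFPoct4 and from 46.4% to 24.3% and 9.96% against C57-mES. The fit with the replicate block kept every member count, with 6 in each comparison with FVB-sFB and 2 for GFPoct4 against C57-mES. Member and group combinations above background on all arrays numbered 12, and 14 and 12 with the 90th and the 99th percentile as background.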
